A study of Mus musculus with 3 samples.

Results

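Hypoxia response genes are here the 10 genes Bnip3, Higd1a, Pdk1, Slc2a1, Slc2a3, Vegfa, Adm, Egln3, Ndrg1 and Ankrd37, a list given by gene name, with no threshold on their values. The list was chosen with earlier results of these data known, so counts of its genes set against all genes are descriptions only. All 10 were present in each of the 3 gene count tables, out of 22439 genes listed for mouse embryonic stem cells (mESC), 23371 for cardiac precursor cell cultures (CPCC) and 24229 for beating cardiac bodies (CB). The cells were male and labelled C57BL/6 x CAST/EiJ, and came from F1 stem cell lines with C57BL/6J mothers and CAST/EiJ fathers. The mESC were kept in 2i medium with LIF, the CPCC were grown from embryoid bodies and passaged in medium with EGF and Fgf2, and the CB were floating aggregates picked because they beat. No group was given a hypoxic treatment in the study's methods, so the list was followed under ordinary culture. The tables held 215 mESC, 175 CPCC and 232 CB single cells, 1 sample per group, in 3, 2 and 3 sequencing pools that carried no column name in common.

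Cells meet low oxygen through the HIF pathway. In normal oxygen, EGLN prolyl hydroxylases mark the HIF alpha subunits for the VHL ubiquitin ligase. When oxygen falls the subunits persist, pair with ARNT and bind hypoxia response elements near their target genes. The targets shift cells toward glycolysis, limit mitochondrial use of oxygen and call for new vessels, and the pathway is known for its part in the forming heart and its vessels. It is also active in stem cells under some culture conditions.

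The 10 genes can be placed by role. Bnip3 is a mitochondrial protein of mitophagy and cell death, and Higd1a is a small protein of the inner mitochondrial membrane. Slc2a1 and Slc2a3 are the glucose transporters GLUT1 and GLUT3, and Pdk1 blocks the entry of pyruvate into the citric acid cycle. Vegfa, a growth factor for endothelial cells, and Adm, the vasodilator peptide adrenomedullin, are secreted. Egln3 is a prolyl hydroxylase that acts back on HIF. Ndrg1 is a stress and differentiation gene, and Ankrd37 is an ankyrin repeat protein best known as a HIF target.

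Promoter sequences from RefSeq (GRCm38.p6, from 250 bases before to 50 after a start site) were found for 8 of the 10 genes, with 2 windows each for Vegfa and Pdk1. The hypoxia response element core, ACGTG or GCGTG on either strand, occurred in at least 1 window of all 8 genes. Over all genes with a window it occurred in 46.7% of 27025, and over genes detected in at least 25% of mESC in 69.8% of 7755, so the core alone is common among active promoters. The windows of 5 genes are shown as examples from different roles, a mitochondrial protein, a HIF target of little known function, a glucose transporter, a prolyl hydroxylase and a secreted peptide: Bnip3 (chr7:138909457-138909756, minus strand), Ankrd37 (chr8:45999801-46000100, minus strand), Slc2a1 (chr4:119108495-119108794, plus strand), Egln3 (chr12:54203825-54204124, minus strand) and Adm (chr7:110627407-110627706, plus strand). Each is written along its gene, with the core or its reverse complement in capitals.
Bnip3: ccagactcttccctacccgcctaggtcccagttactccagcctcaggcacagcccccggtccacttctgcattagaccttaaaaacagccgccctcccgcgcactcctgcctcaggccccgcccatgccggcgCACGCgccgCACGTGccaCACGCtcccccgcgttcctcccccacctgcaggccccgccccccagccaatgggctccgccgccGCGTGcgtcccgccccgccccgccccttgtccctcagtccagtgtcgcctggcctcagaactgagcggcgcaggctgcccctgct
Ankrd37: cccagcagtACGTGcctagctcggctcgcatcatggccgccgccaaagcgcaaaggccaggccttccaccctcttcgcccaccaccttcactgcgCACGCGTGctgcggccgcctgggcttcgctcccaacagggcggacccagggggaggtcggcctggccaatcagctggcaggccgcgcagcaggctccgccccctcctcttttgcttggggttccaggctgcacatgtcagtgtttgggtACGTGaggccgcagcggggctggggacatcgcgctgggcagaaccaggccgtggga
Slc2a1: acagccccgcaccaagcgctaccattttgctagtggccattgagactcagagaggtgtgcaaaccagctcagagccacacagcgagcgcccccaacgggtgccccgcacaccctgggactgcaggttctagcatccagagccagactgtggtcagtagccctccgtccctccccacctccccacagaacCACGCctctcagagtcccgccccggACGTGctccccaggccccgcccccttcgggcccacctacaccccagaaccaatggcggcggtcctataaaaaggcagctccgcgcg
Egln3: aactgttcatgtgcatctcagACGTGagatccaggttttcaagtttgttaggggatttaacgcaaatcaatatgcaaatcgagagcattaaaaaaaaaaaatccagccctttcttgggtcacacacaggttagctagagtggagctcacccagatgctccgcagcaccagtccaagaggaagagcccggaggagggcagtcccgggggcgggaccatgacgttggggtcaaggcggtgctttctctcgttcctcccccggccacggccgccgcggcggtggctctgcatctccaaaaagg
Adm: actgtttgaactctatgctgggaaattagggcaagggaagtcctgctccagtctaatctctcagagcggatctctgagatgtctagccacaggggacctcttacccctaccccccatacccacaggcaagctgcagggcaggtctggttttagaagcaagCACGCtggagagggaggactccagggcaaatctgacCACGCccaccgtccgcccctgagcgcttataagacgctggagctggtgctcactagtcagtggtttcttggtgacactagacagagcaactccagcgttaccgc
Bnip3 held the most matches, 5, of which 2 were a single CACGTG read on both strands. Ankrd37 held 4, with 2 of them overlapping, Slc2a1 and Adm 2 each and Egln3 1. Among windows not shown, that of Higd1a held 3 matches, and Vegfa and Pdk1 each had 1 window with 2 matches and 1 with none. For Pdk1 the window with matches was at the annotated 5' end of the gene. For Vegfa it lay inside the gene (chr17:46025114-46025413), and the window at the annotated 5' end had none. A match is a description of these letters and not a shown binding site. The other 5 genes lie at chr17:46016993-46032369 (Vegfa), chr2:71873224-71903858 (Pdk1), chr15:66929318-66969640 (Ndrg1), chr6:122727809-122801640 (Slc2a3) and chr9:121848563-121858362 (Higd1a) of GRCm38.

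Total gene counts per cell had medians of 1528316 in mESC, 1437414 in CPCC and 1397869 in CB, and no cell's column repeated another. mESC pool 1 was shallower than pools 2 and 3, with a median of 1182942 counts against 1833519 and 1855334. CB pool 1 was also shallower than CB pools 2 and 3, at 804581 against 1750784 and 1596814. CPCC pool 2 was shallower than CPCC pool 1, at 1099806 against 1631467. Pou5f1 and Nanog, which define pluripotent cells, were detected in 94.4% and 96.7% of mESC. Pou5f1 was detected in 55.4% of CPCC and was not listed for CB, and Nanog was detected in 63.4% of CPCC and 6.03% of CB cells. The CB sample is labelled as mature cardiac cells, but Tnnt2, Myh6 and Myl7, which define cardiomyocytes, were detected in 14.7%, 6.03% and 8.62% of its cells. No cluster of CB cells had any of the 10 cardiomyocyte markers in most of its cells.

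Of the 10 genes the most abundant per length was Bnip3 in each culture, at 122, 88.6 and 161 CPM per kilobase of exon in mESC, CPCC and CB. CPM is a gene's share of all gene counts scaled to 1000000, here summed over the cells of a culture. Slc2a3 came next in mESC, at 56.5 CPM per kilobase, Slc2a1 in CPCC, at 63.9, and Higd1a in CB, at 95.6. The least abundant per length was Adm in mESC, at 3.96, and Ndrg1 in CPCC and CB, at 2.2 and 5.43. In a sum over cells, fewer expressing cells and less RNA per cell cannot be told apart, so the share of cells is given beside levels where it matters.

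The clearest pattern lay within the mESC. All 10 genes were lower in pool 1 than in both other pools, as were 31.8% of the 11195 genes that reached 5 CPM in at least 1 mESC pool. At least 2-fold lower than both were 7 of the 10, against 1.9% of all genes. This contrast was chosen after the pool values were seen, so it is a description and carries no test.

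Bnip3 was at 43.8 CPM in mESC pool 1, 409 in pool 2 and 347 in pool 3. Adm was at 0.425, 12.1 and 5.3 CPM in the same order, and in pool 1 a single cell gave 87.2% of its counts. Ndrg1 was at 7.4, 41.1 and 35.8 CPM. These were the members farthest apart, with pool 2 over pool 1 at 9.34-fold for Bnip3, 28.4-fold for Adm and 5.55-fold for Ndrg1.

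Vegfa was at 16, 50.4 and 57.3 CPM in mESC pools 1, 2 and 3. Egln3 was at 11.7, 37.6 and 54.7 CPM, and Pdk1 at 20.5, 67.3 and 60.5. Ankrd37 was at 12.2, 47.1 and 53.2 CPM. For these 4 genes pool 1 was 2.96-fold to 4.68-fold below the other pools, whereas pools 2 and 3 lay nearer to each other. The remaining members differed less. Slc2a1 was at 95.4, 184 and 177 CPM, Higd1a at 86.8, 152 and 165, and Slc2a3 at 321, 455 and 445, so pool 1 was at most 1.93-fold lower for any of them.

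**Figure D1:**
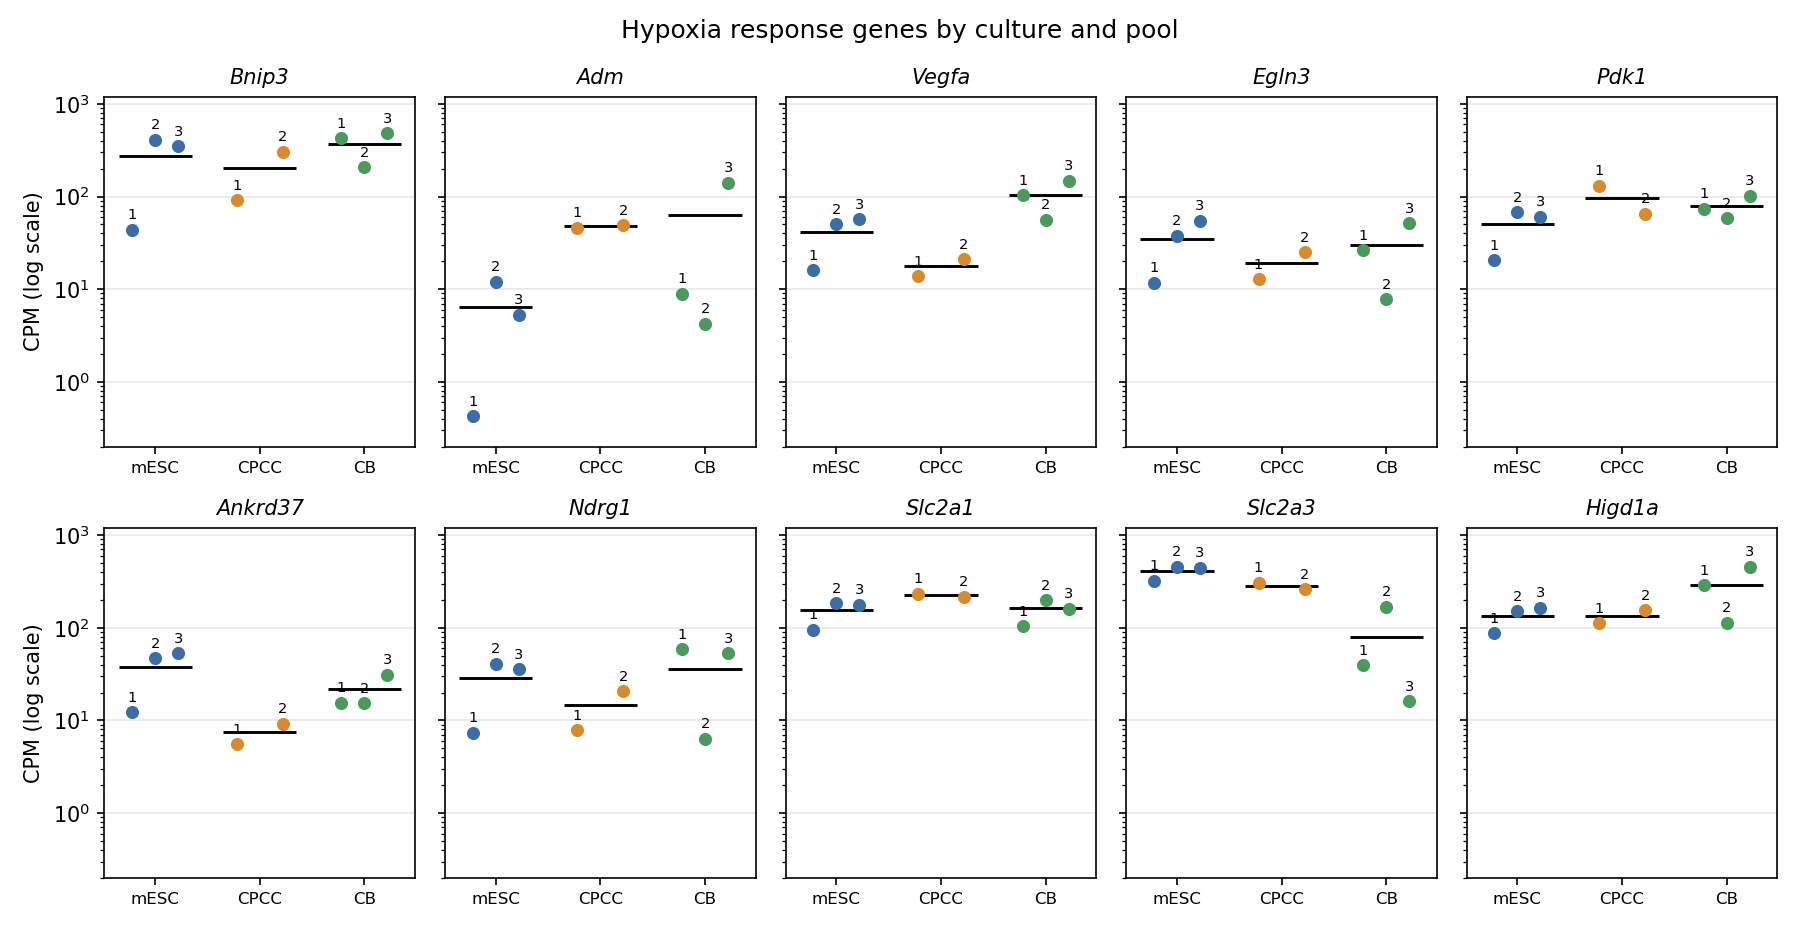
Levels of the 10 hypoxia response genes in CPM on a log axis. Each numbered point is the summed count of 1 sequencing pool and each black line the summed count of a culture. In every panel mESC pool 1 lies below mESC pools 2 and 3, and the pools of CB spread from 4.25 to 140.3 CPM for Adm and from 16.1 to 168 CPM for Slc2a3.

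The gap was one of cells as well as of level. Among cells with at least 100000 counts, Bnip3 was under 1 CPM in 52.9% of the 87 cells of mESC pool 1, against 7.04% of 71 in pool 2 and 6.67% of 45 in pool 3. At 100 CPM or more were 5.75%, 67.6% and 73.3% of the cells. After each cell was thinned to 430000 counts, Bnip3 was still detected in 48.1%, 92.9% and 93.2% of cells in pools 1, 2 and 3. Counted as present at 10 or more thinned counts, at least 7 of the 10 genes were present together in 7.59% of pool 1 cells (95% exact binomial interval 2.84 to 15.8), 51.4% of pool 2 cells (39.2 to 63.6) and 54.5% of pool 3 cells (38.8 to 69.6). These intervals cover counting error only.

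**Figure D2:**
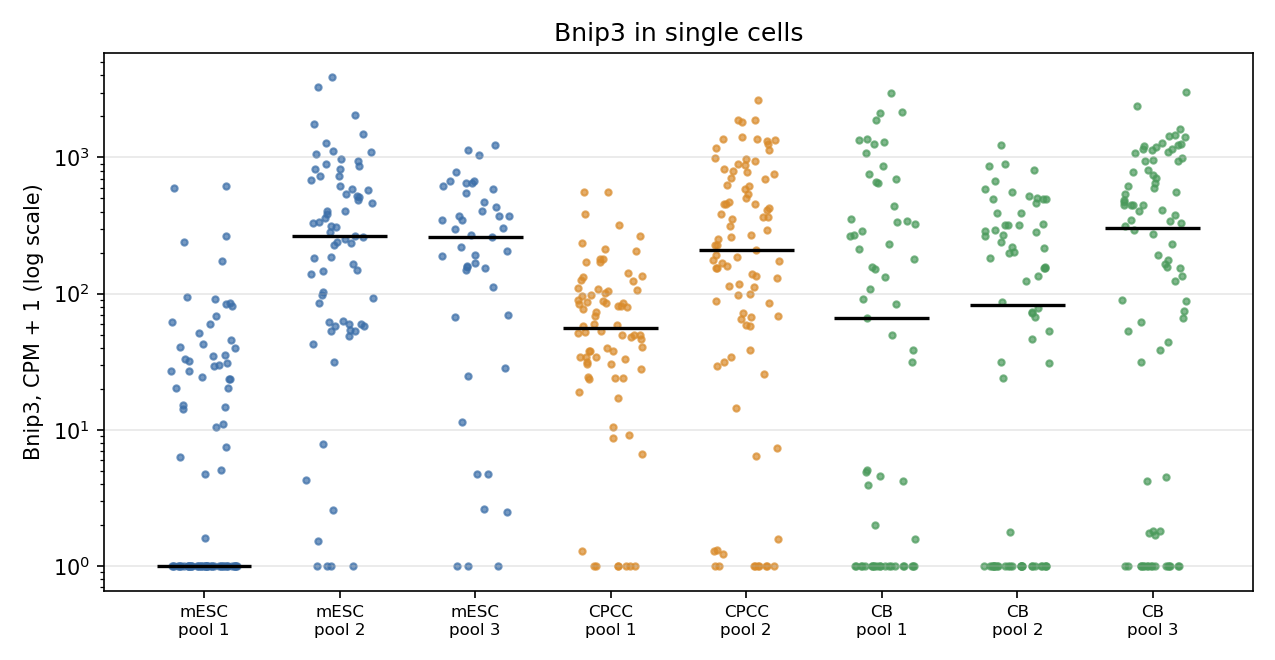
Bnip3 in single cells with at least 100000 counts, as CPM + 1 on a log axis, by culture and pool. Each point is a cell and each black line the median of a pool. The median is at 0 CPM in mESC pool 1 and at 263 and 259 CPM in mESC pools 2 and 3, and every pool also holds cells under 1 CPM.

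Related genes moved with the list to different extents. Of 25 other HIF target genes, 18 reached 5 CPM in an mESC pool, and 17 of these were lower in pool 1 than in both other pools, 8 of them at least 2-fold. Bhlhe40, a transcription factor induced by HIF, was at 16.3, 86.9 and 78 CPM, and Slc16a3, the lactate exporter MCT4, at 3.01, 16.2 and 26.6. Fam162a, a mitochondrial protein, was at 90.9, 215 and 254 CPM. Kdm3a, a histone demethylase, ran the other way, at 204, 147 and 102 CPM. Among 15 glycolytic enzymes 12 were lower in pool 1 and 5 at least 2-fold, with Pgk1 at 221, 582 and 641 CPM and Aldoc at 10.4, 69.4 and 82.1 CPM.

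The pathway's own components did not follow. Of the 10 expressed HIF pathway components 3 were lower in mESC pool 1 than in both other pools, none of them 2-fold. Hif1a, the oxygen-regulated subunit, was higher in pool 1, at 80.7 CPM against 72.2 and 49.3. Egln1, the main prolyl hydroxylase and itself a HIF target, was lower, at 17.2 CPM against 29.7 and 34.6. HIF is regulated mainly through its protein, which was not measured here. Of 10 pluripotent markers 3, and of 8 cell cycle genes 2, were lower in pool 1, none 2-fold.

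**Figure D3:**
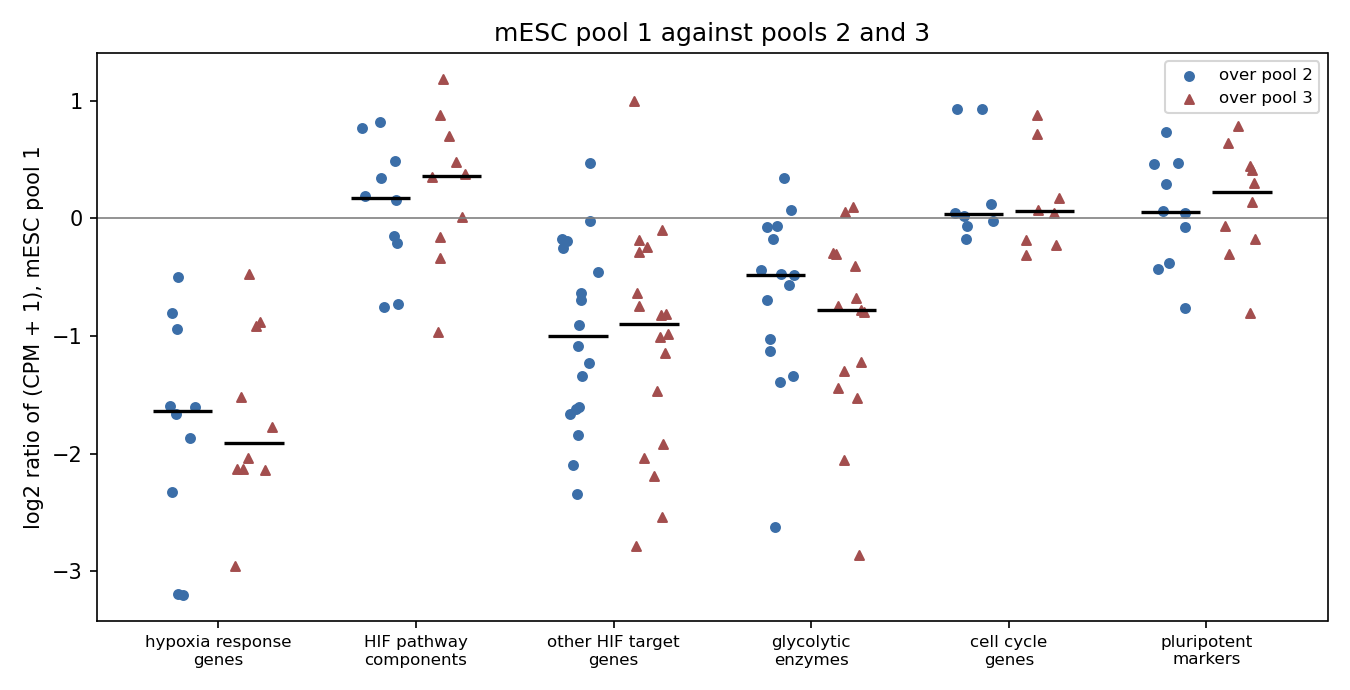
Log2 ratio of (CPM + 1) of mESC pool 1 over pool 2 (circles) and over pool 3 (triangles), for genes of 6 lists that reached 5 CPM in at least 1 mESC pool. Each symbol is a gene and each line a median. The medians are -1.64 and -1.91 for the hypoxia response genes and 0.18 and 0.36 for the HIF pathway components, against 0.05 and 0.05 over all 11195 genes.

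Depth and the share of mitochondrial counts also differed between the mESC pools, with medians of 3.28%, 5.03% and 3.59% mitochondrial counts in pools 1, 2 and 3. The counts of 10 lower and 7 at least 2-fold lower were the same when cells were weighted equally, when they were filtered or thinned, and when pools were scaled to the same median gene. The mESC sample is labelled as a triplicate, and the study derived its lines from several blastocysts, but which clone, dish or chip a pool holds is not given in the sources used here. Each pool had a sequencing lane of its own, and the methods describe libraries made per chip that were then combined into fewer pools, so a pool may hold more than 1 chip. Pool, lane, clone and dish therefore cannot be told apart.

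Between cultures the list did not move as 1 block. For CPCC over mESC, the median log2 ratio of (CPM + 1) over the 10 genes was -0.50, against 0.00 over all genes at 5 CPM or more. At least 2-fold higher was 1 gene, Adm, against 13.4% of all genes, and 2 were at least 2-fold lower, Ankrd37 and Vegfa, against 6.38%. Over genes at 5 CPM or more the 2 shares were 17.8% and 7.94%. Every CPCC pool lay outside the range of the mESC pools for 4 of the 10 genes, against 38.3% of all genes. The share with pools apart is close to the background. The median was -0.15 without CPCC pool 1, -0.89 without CPCC pool 2, -0.80 without mESC pool 1, -0.18 without mESC pool 2 and -0.02 when cells were weighted equally. The number of genes 2-fold lower was 5 without CPCC pool 2, 4 without mESC pool 1, and 1 without CPCC pool 1, mESC pool 2 or mESC pool 3. The number 2-fold higher was 2 without CPCC pool 2, mESC pool 2 or mESC pool 3 and with equal weights, and 1 otherwise. The CPCC table holds whole counts and the mESC and CB tables estimated counts, so counting and culture cannot be told apart for CPCC.

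Adm was at 46.1 and 48.9 CPM in the CPCC pools, above all mESC pools, and its log2 ratio was 2.71. In CPCC pool 1, 1 cell gave 52.3% of its counts, and the gene was detected in 17.7% of cells there and in 34.4% in pool 2. Ankrd37 was at 5.54 and 9.2 CPM in CPCC, below all mESC pools, with a log2 ratio of -2.21. Ankrd37 overlaps the gene Ufsp2 at its 3' end, on the opposite strand, and the use of strand in counting was not stated. Ufsp2 was higher in CPCC, at 120.0 CPM against 69.7 in mESC, and its part in the Ankrd37 level was not tested. Slc2a3 was at 306 and 260.5 CPM in CPCC, just below the lowest mESC pool, and Slc2a1 at 233 and 216 CPM, above the highest.

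Within CPCC the pools disagreed on the rest. Bnip3 was at 91.8 CPM in pool 1 and 303 in pool 2, both above mESC pool 1 and below pools 2 and 3. Pdk1 ran the other way, at 130.3 and 65.4 CPM. Vegfa was at 13.9 and 21.2 CPM, Egln3 at 12.8 and 25.1, Ndrg1 at 7.84 and 20.7 and Higd1a at 112 and 155, so each had a CPCC pool inside the range of the mESC pools.

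For CB over mESC the median log2 ratio of the 10 genes was 0.35, against 0.27 over all genes at 5 CPM or more. Adm, Vegfa and Higd1a were at least 2-fold higher, 3 of 10 against 24.9% of all genes, and Slc2a3 at least 2-fold lower, 1 of 10 against 11.3%. Over genes at 5 CPM or more the 2 shares were 31.4% and 15.2%. Slc2a3 was also the only gene of the 10 whose pools did not overlap, against 42.8% of all genes. The median turned to -0.06 without CB pool 3 and to -0.09 without mESC pool 1, so the direction of the list between CB and mESC rests on these 2 pools. Without CB pool 3 no gene was 2-fold higher and 3 were 2-fold lower, and without mESC pool 1 these counts were 1 and 2. With TMM scaling the median was 0.18, and Higd1a, at 0.93, was no longer 2-fold higher.

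Slc2a3 was at 39.6, 168 and 16.1 CPM in CB pools 1, 2 and 3, below every mESC and CPCC pool, with log2 ratios of -2.35 over mESC and -1.81 over CPCC. It was detected in 44.4% of CB cells, against 98.1% of mESC and 85.1% of CPCC. Slc2a1, the other transporter, was at 104, 198 and 161 CPM in CB and overlapped the mESC pools. Vegfa was at 104, 56 and 148 CPM, with 2 of the 3 CB pools above every mESC and CPCC pool. Higd1a was at 289, 113 and 455 CPM, and Adm at 8.93, 4.25 and 140.3. CB pool 3 thus held the highest level of both genes, and in CB pool 2 a single cell gave 87% of the Adm counts.

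For CB over CPCC the median log2 ratio was 0.74, against 0.18 over all genes at 5 CPM or more. Vegfa, Ankrd37, Ndrg1 and Higd1a were at least 2-fold higher, 4 of 10 against 17% of all genes, and Slc2a3 at least 2-fold lower, 1 of 10 against 7.54%. Over genes at 5 CPM or more the 2 shares were 20.4% and 10.1%. Pools did not overlap for 4 of the 10, against 28%: Vegfa and Ankrd37 were higher in CB, and Slc2a1 and Slc2a3 were lower. Vegfa had the largest log2 ratio of the 10, 2.49. Without CB pool 3 the median was -0.04, with 1 gene 2-fold higher and 2 lower. Without CPCC pool 1 it was 0.32 with 2 genes higher, without CPCC pool 2 it was 1.27 with 6 higher, and without CB pool 2 it was 1.19 with 7 higher. With cells weighted equally 1 gene was 2-fold higher, and with TMM 3 were. Higd1a, at 1.11, was below 2-fold under 3 other scalings, at 0.92 with TMM, 0.91 with DESeq2 and 0.93 with equal weights.

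The spread between pools of 1 culture was often as large as these differences. Between the highest and the lowest pool, Adm differed 28.4-fold in mESC and 33-fold in CB, Slc2a3 10.4-fold in CB, Ndrg1 9.21-fold in CB and Bnip3 9.34-fold in mESC. Slc2a1 stayed within 1.93-fold in each culture, and Pdk1 within 3.29-fold.

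Bnip3 in CB was at 425, 208 and 482 CPM in pools 1, 2 and 3, which overlapped mESC. Pdk1 was at 73.5, 58.6 and 102 CPM, Egln3 at 26.4, 7.79 and 51.8, Ankrd37 at 15.6, 15.3 and 31.1, and Ndrg1 at 58.7, 6.37 and 52.9. CB pool 2 was the lowest CB pool for 8 of the 10 genes, against 36% of the 13963 genes that reached 5 CPM in at least 1 CB pool, a contrast chosen after the values were seen. The exceptions were Slc2a1 and Slc2a3, which were highest there.

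The pathway's components were compared in the same way. For CB over mESC, 4 of 12 were at least 2-fold higher (Hif3a, Arnt2, Cited2 and Crebbp) and none lower, and 7 had pools that did not overlap, all higher. The shares of all genes were the 24.9%, 11.3% and 42.8% given above for 2-fold higher, 2-fold lower and pools apart. Hif1a was at 118 CPM in CB and 137 in CPCC against 68.2 in mESC, with pools apart both times. Cited2, which competes with HIF for its coactivators, was at 94.6, 77.2 and 36.6 CPM in the same order. Among the 15 glycolytic enzymes none was 2-fold higher and 6 were 2-fold lower in CB than in mESC, with Pkm at 782 CPM against 2305 and Pfkp at 52.1 against 324. Other HIF targets were near the shares of all genes: 7 of 23 were 2-fold higher, among them the collagen-modifying enzymes P4ha1, P4ha2 and Plod2, and 3 were lower, namely Hk2, Kdm3a and Ak4. Fibroblast markers were higher too, 6 of 6 listed in both tables at least 2-fold, and their part in the collagen enzymes' levels was not tested.

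Immediate early genes, which are induced within minutes by stimuli that include cell dissociation, also differed between the cultures. For CB over mESC all 8 were at least 2-fold higher with pools apart, at a median log2 ratio of 6.54, and Fos was at 2044 CPM against 16. For CPCC over mESC 7 of 8 were 2-fold higher, at a median of 3.32, and for CB over CPCC 8 of 8, at 2.98. Their summed level was 231 to 351 CPM in the mESC pools, 623 and 1287 in the CPCC pools, and 7137, 1434 and 9691 in CB pools 1, 2 and 3. Of the 10 fibroblast markers, 6 were listed for mESC, where they summed to 3.94 to 8.28 CPM, with Col1a2 at 0 in pools 2 and 3. All 10 were listed for the other cultures. They summed to 127 and 1060 CPM in CPCC, with Lum at 0 in pool 1, and to 14382, 467 and 15598 in CB. Both lists were thus lowest in CB pool 2, the pool where 8 of the 10 hypoxia response genes were lowest. Over the cells of a pool, the immediate early genes had a rho with the members between -0.19 and 0.11 in 7 of 8 pools and of 0.45 in mESC pool 3. Their part in the differences between cultures and pools was not tested.

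Whether the genes rose and fell together was examined over cells within each pool, where differences between pools and cultures cannot enter. Spearman correlations of CPM were taken over cells with at least 100000 counts and averaged over the 45 pairs. The mean was 0.11, 0.30 and 0.18 in mESC pools 1, 2 and 3, -0.01 and 0.24 in the CPCC pools, and 0.23, 0.14 and 0.19 in the CB pools. Over all pairs of genes detected in at least 25% of cells it was 0.02, 0.05 and 0.14 in mESC, 0.01 and 0.07 in CPCC, and 0.04, 0.03 and 0.04 in CB. The members were thus above the background in 7 of 8 pools, by little in mESC pool 3, and at it in CPCC pool 1. That background holds only genes detected in at least 25% of cells, which Adm did not reach in mESC and CB. Over the 36 pairs without Adm the mean was 0.12, 0.31 and 0.20 in mESC, 0.00 and 0.30 in CPCC, and 0.24, 0.17 and 0.18 in CB. The points of each correlation are cells of 1 library pool, which share a lane and whose depths differ, and no p is given.

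**Figure D4:**
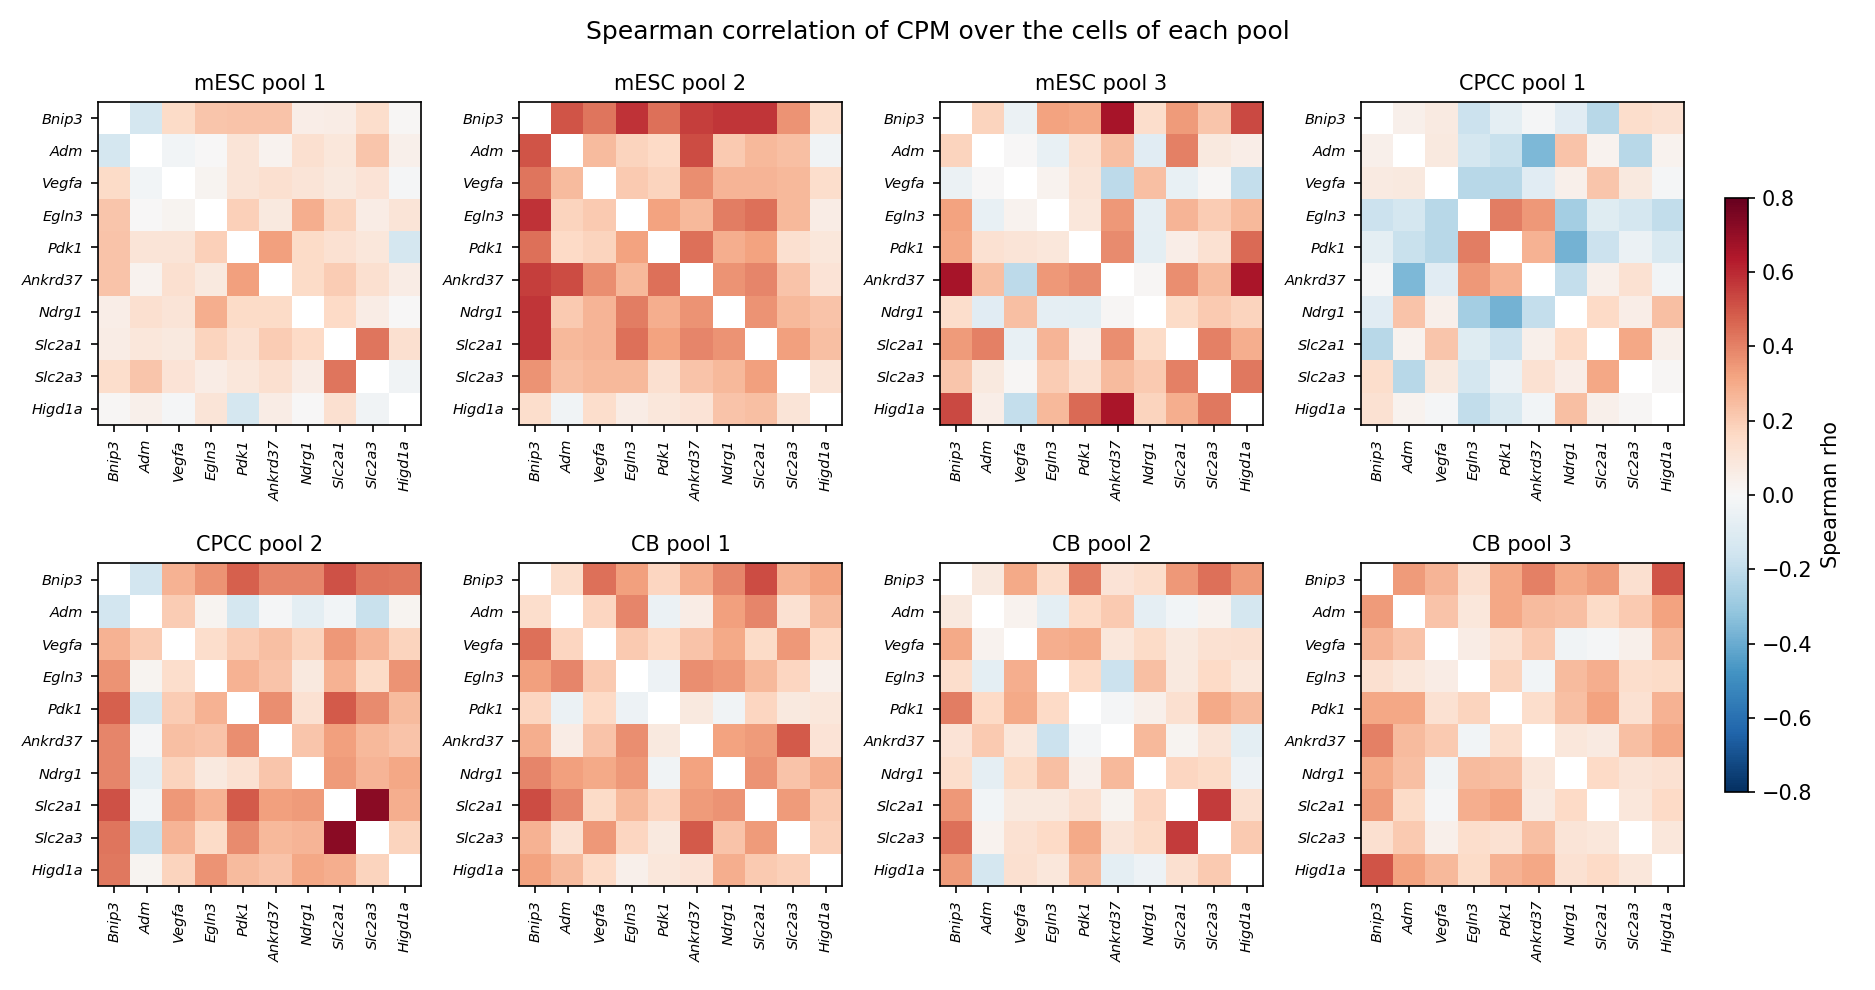
Spearman correlation between each pair of hypoxia response genes over the cells of each of the 8 pools, from blue (negative) to red (positive). The grids are mostly red in mESC pool 2, CPCC pool 2 and the CB pools and mixed in CPCC pool 1, where 22 of 45 pairs are above 0. Bnip3 forms a red row in mESC pool 2, with rho up to 0.58.

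The glucose transporters Slc2a1 and Slc2a3 were the closest pair, with rho above 0 in 8 of 8 pools, a mean of 0.40 and a highest value of 0.72 in CPCC pool 2. Bnip3 and Ankrd37 followed with a mean of 0.33, above 0 in 7 of 8 pools and highest, at 0.66, in mESC pool 3. Bnip3 with Slc2a1 gave a mean of 0.31, and with Higd1a 0.30. The loosest of the pairs without Adm was Pdk1 with Ndrg1, with a mean of 0.05. Pairs with Adm are not ranked, since the gene was detected in only 2 of 90 cells of mESC pool 1 and in 4 cells each of CB pools 1 and 2.

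Each gene was then set against the mean within-pool rank of the others. In mESC 8 of the 9 genes detected in at least 25% of cells reached a mean rho of 0.2, against 11% of 11911 genes. In CPCC 5 of 10 did, against 11% of 12073, and in CB 9 of 9, against 4.04% of 9730. The CPCC count rests on pool 2, since in pool 1 alone none of the 10 reached 0.2 and the highest was Slc2a3, at 0.17. Bnip3 had the highest mean over pools in mESC (0.25, 0.78 and 0.58 in pools 1, 2 and 3) and in CB (0.55, 0.59 and 0.61), and Slc2a1 in CPCC (0.10 and 0.70). Within mESC Bnip3 was first in pool 2, whereas Slc2a1 was first in pool 1, at 0.37, and Higd1a in pool 3, at 0.62. Vegfa was the mESC gene that did not reach 0.2, at a mean of 0.18. Adm in CPCC was at -0.18 and -0.09. In pool 1 another 5 genes were also below 0, from -0.12 for Egln3 to -0.03 for Bnip3 and Vegfa, and in pool 2 Adm was the gene below 0.

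Depth and cell quality moved with the list in some pools. In mESC pool 3 the mean rank of the members had a rho of -0.63 with the mitochondrial share of a cell, 0.44 with the number of genes detected and 0.43 with the pluripotent markers. The rho with genes detected was 0.34 and 0.42 in CB pools 1 and 2, and that with total counts was -0.36 in CPCC pool 2. In the remaining pools the rho with total counts, genes detected and mitochondrial share lay between -0.25 and 0.23. After total counts, genes detected and mitochondrial share were partialled out, the mean over pairs was 0.11 in mESC pool 3, close to its value in pool 1, which was then 0.10. In mESC pool 2 it was 0.27, in CPCC pool 2 0.21, and in the CB pools 0.23, 0.12 and 0.19.

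Glycolytic enzymes and other HIF targets both moved with the list. The mean rank of the glycolytic enzymes had a rho with that of the members of 0.46, 0.78 and 0.78 in the mESC pools, 0.27 and 0.81 in the CPCC pools, and 0.69, 0.60 and 0.64 in the CB pools. Other HIF targets gave 0.40, 0.82 and 0.67, then 0.25 and 0.55, then 0.44, 0.50 and 0.72. Of these 2 lists the HIF targets were closer in mESC pool 2 and CB pool 3 and the glycolytic enzymes in the other 6 pools. In CPCC pool 1 endothelial markers gave 0.30, above both. HIF pathway components lay between 0.00 and 0.38. Cell cycle genes were near 0 in CB, at -0.03, 0.02 and 0.03, but at 0.51 in mESC pool 3 and 0.42 in CPCC pool 2. In CPCC pool 2 the pluripotent markers also moved with the list, at 0.53, as did mesothelial and epithelial markers, at 0.65. The latter were at 0.37 in mESC pool 3 and at 0.29 and 0.37 in CB pools 1 and 2, and their part in the members' values was not tested.

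The genes most like Bnip3 over cells were copies of it. These were Gm16439, AC160336.1 and Gm6532, with mean rhos of 0.92, 0.89 and 0.87 with Bnip3 in mESC. Each holds a stretch of at least 559 bases that is 98.3% to 98.9% identical to the Bnip3 transcript. Gm16439 and Gm6532 are annotated as pseudogenes and AC160336.1 as a lincRNA. How reads were assigned between Bnip3 and these copies was not tested, so their likeness to Bnip3 is uncertain. With Gm9419, a pseudogene listed in CB only, the copies summed to 59.4 CPM in mESC, 42.3 in CPCC and 80.6 in CB, which is 21.5%, 21.1% and 22.1% of the Bnip3 level. The share hardly changed between pools, from 20.3% to 23.5%, and with the copies added Bnip3 kept its ratios, for example 53.9, 492 and 428 CPM in the mESC pools.

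Higd1a had such a copy too, the pseudogene Gm9790, 99.3% identical over 288 bases. Its level was 21.1% of that of Higd1a in mESC, 17.9% in CPCC and 12.8% in CB. With Gm9790 added, Higd1a summed to 164 CPM in mESC and 328 in CB. Beyond copies, the genes most like Bnip3 were the glycolytic enzymes Pgk1 and Aldoa in mESC, with mean rhos of 0.60 and 0.59, and in CB, with 0.59 and 0.58. In CPCC they were Aldoa and Aldoart1, at 0.52 and 0.48. Aldoart1 belongs to the same gene family as Aldoa, and reads may be shared between them.

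Clusters of cells were made within each culture with the normalization, variable gene limits and resolution that the study states. The number of principal components, 10, is not stated there and was chosen here, in a later version of Seurat. All variable genes were used, so the members helped to define them and their levels by cluster are a description only. Levels within a pool are given for clusters with at least 10 of its cells. In mESC, cluster 2 (58 cells, led by Bnip3, Malat1, Tpi1 and Pgk1) held the highest level of all 10 genes, with Bnip3 at 644 CPM against 208 in cluster 1 and 23.4 in cluster 0. The clusters track pools, since pool 1 gave 83 of the 85 cells in cluster 0, and pool 2 gave 43 of the 58 in cluster 2. Pools 2 and 3 each had cells in clusters 1 and 2. Within pool 2 Bnip3 was at 120.0 CPM in cluster 1 and 666 in cluster 2, and all 10 genes were higher in cluster 2. Within pool 3 Bnip3 was at 276 and 611 CPM, and 8 genes were higher in cluster 2. The exceptions in pool 3 were Ndrg1, at 37.3 and 33.3 CPM, and Adm, at 5.57 and 4.77.

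In CPCC, cluster 2 (30 cells, 28 of them from pool 2, led by Slc2a3, Car4 and Tdgf1) held the highest Slc2a3, Slc2a1 and Bnip3, at 958, 574 and 451 CPM, and did so within pool 2 as well. Of the 10 pluripotent markers 8 were each detected in most of its cells. Cluster 0 (66 cells, 57 of them from pool 1, led by Dppa5a, Mt1 and Mt2), with all 10 of these markers in most cells, had lower Slc2a3, Slc2a1 and Bnip3, at 238, 149 and 144 CPM, but the highest Pdk1, at 178 CPM. No pool held 10 cells of both clusters, so cluster and pool cannot be told apart in this contrast. Adm was at 117 CPM in cluster 1 (55 cells, led by Acta2, Sparc and Tagln) and at 1.44 CPM in cluster 0. Cluster 1 was also the only CPCC cluster in which Adm was detected in most cells, 58.2%. In cluster 3 (14 cells, led by Spp1, C1qb and C1qc) Vegfa was at 1.77 CPM, Slc2a3 at 0.285 and Bnip3 at 166.

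In CB, cluster 1 (44 cells, led by Col1a2, Col3a1 and Mfap4) had the highest Bnip3, Higd1a, Adm and Vegfa, at 597, 595, 215 and 196 CPM, and 37 of its cells were from pool 3. Within pool 3 it was highest for Bnip3, Higd1a and Adm, but Vegfa was at 191 CPM there against 214 in cluster 3. Ndrg1 was highest in cluster 2 (43 cells, led by Wfdc2 and Upk1b), at 90.4 CPM, as was Slc2a1, at 234, and both were also highest there within pools 1 and 3. Egln3 was at 52.2 CPM in cluster 2, but not highest there within either pool, at 15.5 against 27.3 in cluster 0 of pool 1 and 60.8 against 75.6 in cluster 3 of pool 3. Slc2a3 was highest in cluster 0 (87 cells, led by Stmn1 and Hmgb2), at 168 CPM, and 58 of its cells were from pool 2. Within pool 1 it was at 69.3 CPM in cluster 0 and 90.9 in cluster 2. Cluster 4 (20 cells, led by Ramp2, Mest and Kdr, with 10 of 10 endothelial markers in most cells) came wholly from pool 2, so pool and cluster cannot be told apart when it is set against clusters 1, 2 and 3. Against cluster 0 of the same pool, Bnip3 was at 134 CPM and 229, Vegfa at 34 and 62.3, Egln3 at 0.275 and 9.91 and Higd1a at 78.3 and 122. Ankrd37 was higher in cluster 4, at 30.5 CPM against 11, and Adm was at 17.7 against 0.437. Adm was detected in only 10% of cluster 4 cells, and a single cell gave 87% of its counts in pool 2. Its level in cluster 4 thus rests on few cells. Adm was at 0.362 CPM in cluster 0, and so the 2 genes of secreted factors differed there, since Vegfa was at 76.3 CPM.

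**Figure D5:**
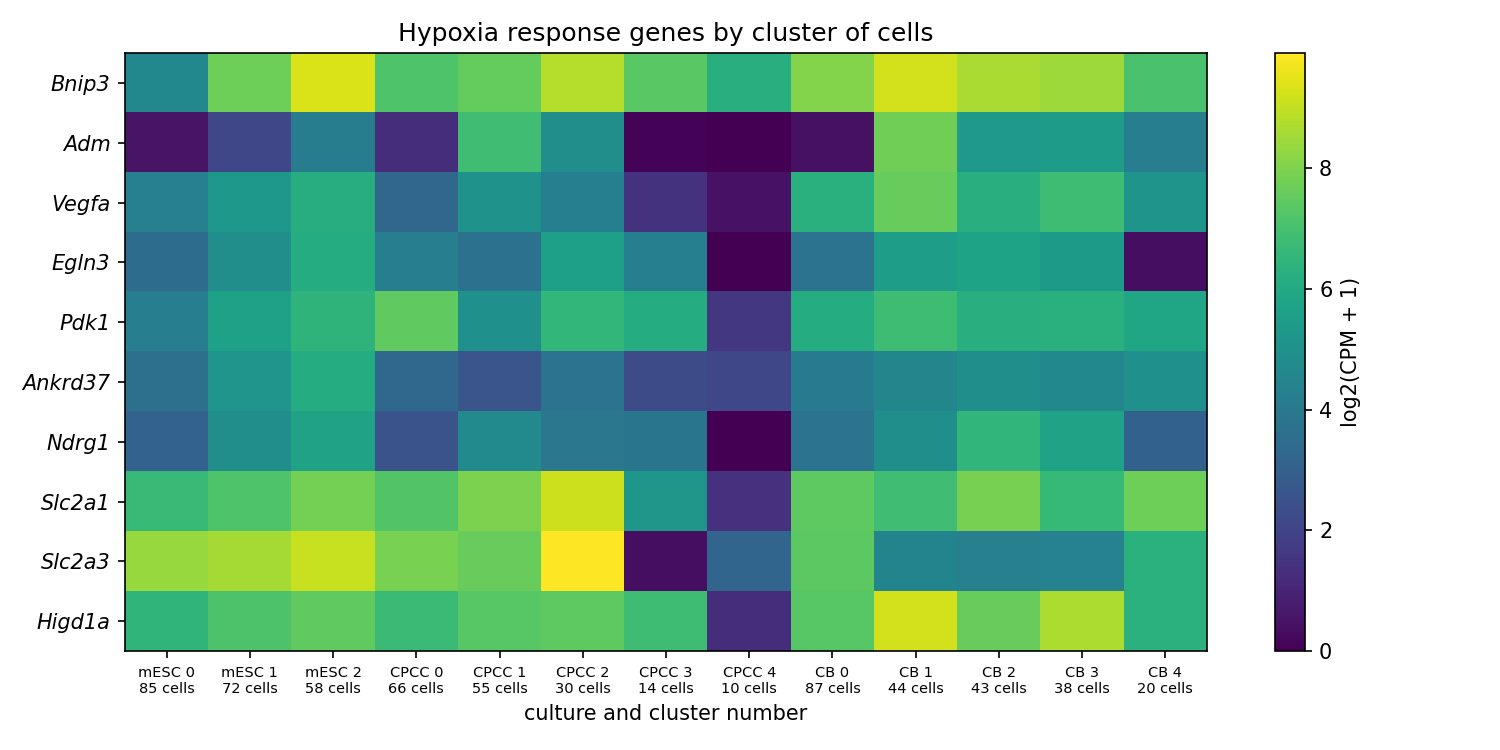
Levels of the 10 hypoxia response genes by cluster of cells, as log2(CPM + 1) of summed counts. Columns are the 3 mESC, 5 CPCC and 5 CB clusters with their numbers of cells. All genes brighten from mESC cluster 0 to cluster 2, whereas CPCC and CB clusters differ gene by gene, and CPCC cluster 4, with a median of 54.4% mitochondrial counts, has the lowest level of all CPCC clusters for 9 of the 10 genes.

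Single cells with most of the list were found in all cultures. At 10 or more thinned counts, at least 7 of the 10 genes were present in 34.2% of mESC, 15.3% of CPCC and 12.9% of CB cells, and at most 2 in 3.11%, 5.73% and 21.9%. Within CPCC, 7 or more were present in 6.58% of pool 1 cells (95% exact binomial interval 2.17 to 14.7) and 23.5% of pool 2 cells (14.8 to 34.2). Within CB the shares were 10.7%, 8.45% and 18.1% in pools 1, 2 and 3. Their 95% exact binomial intervals were 4.03 to 21.9, 3.16 to 17.5 and 10.5 to 28. Such intervals cover counting error over cells only. Cells of a pool are not replicates, so the intervals give no test between pools.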

How the data were processed

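Single cells of the 3 cultures were captured on Fluidigm C1 chips, and full-length cDNA was made from them with SMART-Seq chemistry. The authors aligned the reads to GRCm38 (mm10, Ensembl 97) with STAR 2.7 in Partek Flow and deposited 1 table for each culture, in which every column is a cell. The CPCC table was deposited as whole counts. The mESC and CB tables were deposited as estimated counts, with 26.4% and 27.4% non-whole entries among those above 0 (tolerance 0.001). How reads were assigned to genes, and whether by strand, was not given in the sources used here. The CPCC table also held 208 rows without a gene and 23 symbols turned into dates (0.139% of counts), which were left out, and 2 columns with no sample, which were not used.

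Estimated counts were used as deposited and rounded only for TMM (edgeR 4.0.16), DESeq2 1.42.0, thinning and counting intervals. Each table was assigned to the sample of the culture in its name, and pools were taken from column prefixes. Labels give 1 sample per group and do not call pools replicates, so no test between groups and no p-value was computed. Counts were summed over cells, scaled to CPM and compared as log2 ratios of (CPM + 1), which understate changes of low genes. A gene was detected at 1 or more counts, and shares carry exact Clopper-Pearson intervals. Without molecular identifiers, reads are not separate molecules, and intervals cover counting error only. Cells were clustered with Seurat 5.3.0 (10 principal components, chosen here, and resolution 0.6). No doublet caller was run. Copies of members were sought with BLAST+ 2.17.0 among GENCODE M21 transcripts (at least 90% identity over 200 bases). Scripts were tested on simulated data. Python 3.11.15 was used otherwise.

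The members and lists were chosen with earlier results of these data known. Named were the 10 members, genes of the lists, the 5 genes most like the members or Bnip3 in each culture and the 5 leading genes of each cluster. The contrasts of mESC pool 1 and CB pool 2, their minimum of 5 CPM, the rho of 0.2, the 10 counts for presence, the limits of 7 and 2 genes, the level of 100 CPM, the summed levels of marker lists and the search for copies were chosen after values were seen. Alternatives were other scalings, pseudocounts, cell filters (100000 counts, 2000 genes, at most 25% mitochondrial), thinning and leaving out pools.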

Additional observations from a re-analysis of the deposited data

How the results depend on the processing

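No paired analysis was possible because each group is 1 sample and the pools carry no replicate number. Median log2 ratios of the 10 genes moved under several settings. For CPCC over mESC the median moved from -0.50 to -0.53 with DESeq2 size factors and to -0.02 with cells weighted equally. For CB over mESC it moved from 0.35 to 0.18 with TMM, 0.12 with DESeq2, and 0.31 either with equally weighted cells or when 10 CPM was the pseudocount. For CB over CPCC it moved from 0.74 to 0.56, 0.55, 0.41 and 0.64 under the same 4 settings in that order. Leaving out a pool gave -0.89 to -0.15, -0.09 to 0.84 and -0.04 to 1.27 for the 3 comparisons. The sign turned without CB pool 3 (-0.06 over mESC, -0.04 over CPCC) and without mESC pool 1 (-0.09), and the cause was not tested. Single genes that changed sign were Slc2a1 for CB over mESC, from 0.10 to -0.07 with TMM and -0.13 with DESeq2, and, with cells weighted equally, Bnip3 for CPCC over mESC, from -0.46 to 0.17, Egln3 for CB over mESC, from -0.20 to 0.04, and Higd1a for CPCC over mESC, from -0.01 to 0.12.

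Mean correlations were 0.196 in mESC, 0.111 in CPCC and 0.189 in CB. Leaving out a pool gave 0.146 to 0.240 in mESC, -0.013 to 0.236 in CPCC and 0.167 to 0.213 in CB, so in CPCC the sign turned without pool 2. Leaving out pairs with Adm gave 0.211, 0.151 and 0.198. The median share of cells with a member was 58.3% in place of 66% for CPCC, and 35.3% in place of 48.7% for CB, when 5 counts were asked for. The highest Bnip3 level of a cluster was 635 CPM in mESC, 362 in CPCC and 563 in CB with 5 principal components, and 488 in CPCC and 497 in CB with 15. Restricting the background to genes of at least 5 CPM was run for the shares of all genes only, since it leaves the members' medians as they are. It gave 17.8%, 31.4% and 20.4% higher and 7.94%, 15.2% and 10.1% lower at 2-fold for CPCC over mESC, CB over mESC and CB over CPCC.

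Limits are that 1 sample per group leaves no replicate error, that pools are not tied to clones or dishes, that low genes such as Adm rest on few cells, and that the assignment of reads between Bnip3 or Higd1a and their copies was not tested. Alternatives for mESC pool 1, for copies and for pairs with Adm were added after seeing the data.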
